A study of Arabidopsis thaliana with 9 samples.

Results

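The 10 genes described here encode transcription factors whose transcripts respond within minutes to touch or wounding of the plant: ORA47, ERF5, ERF6 and ERF104 of the AP2/ERF family, WRKY18, WRKY40, WRKY33 and WRKY46 of the WRKY family, and the C2H2 zinc finger factors ZAT10 and ZAT12. They were taken by gene identifier from 37336 counted genes of Arabidopsis thaliana, and all 10 were found and passed the filter on low counts, with between 305 (WRKY46) and 8355 (WRKY33) counts over 9 libraries. The list was drawn up with the levels of these genes in the same libraries already known, so their differences between genotypes are given as descriptions and not as tests. mRNA-seq libraries were made from 3 biological replicates each of zmp-1 (T-DNA line SALK_066029), zmp-2 (SALK_008955) and WT, all of ecotype Col-0, grown in long days (16 h of light and 8 h of dark) at 23 °C. T-DNA insertion lines carry a foreign DNA segment at a fixed site, here in ZMP, the gene of a protein with zinc finger, SWIB/MDM2 and Plus-3 domains that associates with RNA polymerase IV. Labels and the legend to the transcripts of these alleles give seedlings, 12 days old by the labels, whereas the methods for mRNA-seq name inflorescences. No stress treatment is given for any library.

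Cells of an Arabidopsis leaf that is touched, cut or attacked raise cytosolic calcium and reactive oxygen and activate the MAP kinases MPK3 and MPK6. Calmodulin-binding CAMTA factors, which recognize CGCG sequences, and the kinases act on transcription factors already present, and a first wave of transcripts, many of them for WRKY, ERF and ZAT factors, appears and decays quickly. WRKY proteins bind the W-box and many ERF proteins bind the GCC box, and several of these factors act on their own genes and on each other's.

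Library totals were between 5815211 and 25182435 counts, of which 55.1 to 66.3% were from chloroplast genes, and levels are given as TMM-scaled RPM, counts scaled by the library total and by edgeR's correction for library composition. ZMP itself had 2.13, 3.00 and 2.83 TMM-scaled RPM in zmp-1, 1.50, 1.00 and 1.32 in zmp-2, and 5.53, 6.75 and 7.47 in WT, and every mutant library was below every WT library. Its log2 fold changes were −1.35 ± 0.26 (SE) in zmp-1 (edgeR adjusted p = 0.155) and −2.35 ± 0.26 in zmp-2 (adjusted p = 0.0101), so some ZMP transcript was still counted in both lines. Summed leaf markers (RBCS1A and LHCB1.3) were at 4797 to 6680 TMM-scaled RPM in zmp-1, 6167 to 6373 in zmp-2 and 5465 to 6851 in WT, while 6 floral organ markers summed to 1.34 to 3.26 in zmp-1, 1.64 to 1.77 in zmp-2 and 1.61 to 2.95 in WT, with AG at 0 counts in every library. RBCS1A alone varied more between replicates, at 1148, 998 and 503 in zmp-1, 1756, 363 and 1365 in zmp-2, and 1266, 390 and 1515 in WT. The 4 root markers summed to 1.42 to 3.53 in zmp-1, 0.750 to 1.06 in zmp-2 and 0.857 to 6.09 in WT. Some libraries stood apart: 160 of 18109 tested genes in WT replicate 3 and 89 in WT replicate 2 were more than 4-fold above the median of the other libraries, against 0 to 15 in each of the remaining 7, while 41 genes in zmp-1 replicate 3 and 34 in zmp-1 replicate 2 were more than 4-fold below it, against 1 to 5 in each of the remaining 7. Where leaving out a library moved the fold of a difference printed here by more than 1.5 times, the value without it is given. Smaller moves are not all given, and some of them changed the sign of a log2 fold change. In whole-plant RNA a change in the number of cells and a change in RNA per cell cannot be told apart.

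The genes lie on chromosomes 1, 2, 4 and 5, and the sequences next to their starts were searched for motifs that these and related factors are known to bind. Stretches of 250 bases directly upstream of the annotated start, from RefSeq's TAIR10.1 assembly, are printed for 5 genes in which the data or the sequence differ most: ORA47, which had the largest difference from WT, WRKY18 and WRKY40, which differed in opposite directions, WRKY33, with 2 kinds of motif, and ZAT12, with a CGCG. Capitals mark matches on either strand to the W-box core (TTGAC), the GCC box (GCCGCC), the G-box (CACGTG), the rapid stress response element (CGCGTT) and its CGCG core, which is part of that element. All are written 5′ to 3′ on the strand of the gene.
ORA47 (AT1G74930), chr1:28143601-28143850, plus strand: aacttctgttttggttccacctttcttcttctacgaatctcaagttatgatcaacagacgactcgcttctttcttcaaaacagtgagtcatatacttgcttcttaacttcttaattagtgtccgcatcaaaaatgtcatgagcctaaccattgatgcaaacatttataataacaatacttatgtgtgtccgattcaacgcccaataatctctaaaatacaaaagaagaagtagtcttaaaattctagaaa
WRKY18 (AT4G31800), chr4:15382527-15382776, plus strand: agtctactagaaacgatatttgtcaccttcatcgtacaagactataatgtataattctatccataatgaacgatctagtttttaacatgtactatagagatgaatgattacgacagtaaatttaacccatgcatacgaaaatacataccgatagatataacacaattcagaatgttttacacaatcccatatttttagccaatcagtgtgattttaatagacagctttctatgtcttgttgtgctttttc
WRKY40 (AT1G80840), chr1:30383311-30383560, plus strand: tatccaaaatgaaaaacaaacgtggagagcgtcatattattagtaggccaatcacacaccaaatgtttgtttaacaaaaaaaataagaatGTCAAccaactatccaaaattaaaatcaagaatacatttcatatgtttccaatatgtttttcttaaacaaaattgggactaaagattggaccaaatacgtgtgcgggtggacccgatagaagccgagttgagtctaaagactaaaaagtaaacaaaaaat
WRKY33 (AT2G38470), chr2:16107985-16108234, plus strand: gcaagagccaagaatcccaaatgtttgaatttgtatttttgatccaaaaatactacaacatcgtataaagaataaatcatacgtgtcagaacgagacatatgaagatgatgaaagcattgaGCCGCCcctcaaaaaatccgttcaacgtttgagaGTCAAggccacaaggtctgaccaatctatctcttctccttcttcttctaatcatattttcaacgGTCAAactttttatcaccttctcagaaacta
ZAT12 (AT5G59820), chr5:24102564-24102813, plus strand: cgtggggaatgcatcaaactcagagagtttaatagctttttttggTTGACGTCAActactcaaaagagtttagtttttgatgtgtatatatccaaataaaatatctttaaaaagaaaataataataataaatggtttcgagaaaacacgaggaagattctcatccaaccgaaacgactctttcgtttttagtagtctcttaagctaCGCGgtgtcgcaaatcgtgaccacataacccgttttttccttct
Among the 10 genes, 6 held the W-box core in this window (WRKY33 and ZAT12 with 2 matches each, WRKY40, WRKY46, ZAT10 and ERF5 with 1 each), against 44.9% of the windows of 27438 protein-coding nuclear genes. The GCC box was present in 2 of 10 (WRKY33 and ZAT10), against 1.87% of all windows, and CGCG in 1 of 10 (ZAT12), against 10.1%. CGCGTT (2.59% of all windows) and the G-box (6.49%) had no match in any of the 10 windows, and neither ORA47 nor ERF104, the genes that were higher in every mutant library, matched any of the motifs searched. A match is a description of the letters in this window and says nothing of binding.

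Most of the factors were higher in the mutants, but not all of them. Fitted log2 fold changes were positive for 8 of 10 in zmp-1 and 7 of 10 in zmp-2, with medians of 1.04 and 0.58, beside medians of −0.01 and −0.02 over all 18109 genes tested. WRKY18 and ZAT12 were lower in both mutants, and WRKY46 was lower in zmp-2. A difference of more than 2-fold upward was seen in 5 of 10 in zmp-1 (1.33% of all genes tested) and 3 of 10 in zmp-2 (1.47%), and of more than 2-fold downward in 1 of 10 (3.72%) and 2 of 10 (3.34%).

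**Figure D1:**
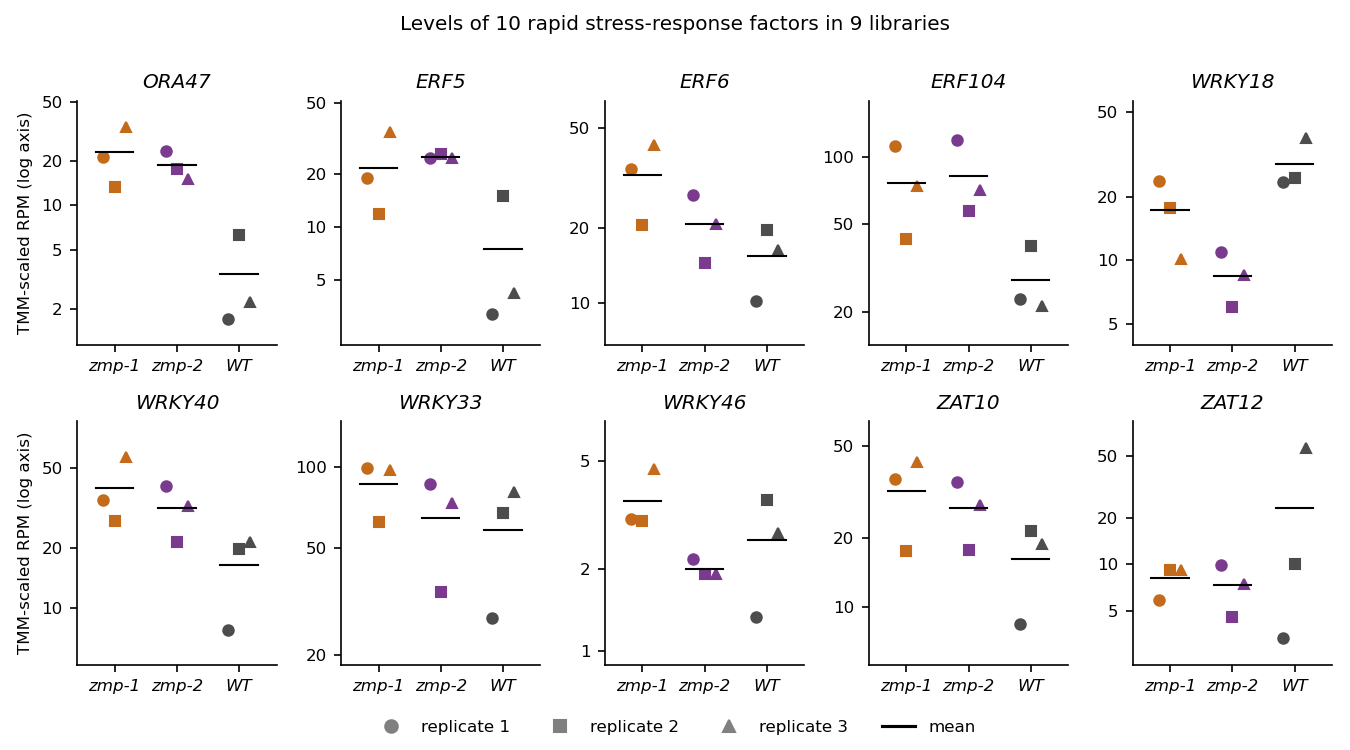
Level of each of the 10 transcription factor genes in each library, in TMM-scaled RPM on a log axis, with zmp-1 and zmp-2 left of WT; symbols mark the replicate number and bars the mean of 3 libraries. ORA47 and ERF104 are higher in all 6 mutant libraries than in any WT library, WRKY18 is lower in zmp-2 than in WT, and a single WT library carries the high mean of ZAT12.

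In the test across all genes (edgeR quasi-likelihood, Benjamini-Hochberg adjusted p of at most 0.05) 0 of the 10 genes were called in zmp-1, where 0.0442% of all genes were, and 0 in zmp-2, where 0.177% were. An unadjusted p under 0.05 was reached by 7 of the 10 in zmp-1 (9.16% of all genes) and 6 in zmp-2 (12.1%). DESeq2 called 2 of 10 in zmp-1 (ORA47 and ERF104, with 0.607% of all genes called) and 3 of 10 in zmp-2 (ORA47, WRKY18 and ERF104, with 1.2% called). Because the genes were chosen from these values, nothing is read from these counts about the group.

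Libraries of zmp-1 lay wholly above those of WT for 4 of the 10 genes (ORA47, WRKY40, ERF6 and ERF104), as they did for 6.79% of all genes, and wholly below for 0 (5.78%). In zmp-2 this held for 3 of the 10 upward (ORA47, ERF5 and ERF104, 8.74% of all genes) and 1 downward (WRKY18, 7.49%). All 6 mutant libraries were above all 3 WT libraries for ORA47 and ERF104, 2 of 10, where 2.97% of all genes behaved so, and below them for 0 of 10 (2.28%). Both mutants share the same WT libraries, so their values are not independent of each other.

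ORA47, an activator of jasmonate synthesis genes that is itself induced by wounding and jasmonate, showed the largest difference. Its intronless gene spans 1208 bp on chromosome 1 (28143851 to 28145058). ORA47 reached 21.3, 13.2 and 33.7 TMM-scaled RPM in zmp-1, and 23.3, 17.6 and 15.1 in zmp-2, against 1.71, 6.29 and 2.22 in WT. The lowest mutant library, at 13.2, was above the highest WT library, WT replicate 2 at 6.29. The highest WT library was 3.67 times the lowest. Fitted log2 fold changes were 2.68 ± 0.45 (SE) in zmp-1 and 2.39 ± 0.44 in zmp-2, 6.41-fold and 5.24-fold, and without WT replicate 2 they were 3.53 and 3.24. A small opposite-strand gene, AT1G74929, overlaps ORA47 over 102 bp and had 0 counts in every library.

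ERF104, a substrate of MPK6 that is released from the kinase when flagellin is perceived, was the other gene higher in every mutant library. It had 112, 42.7 and 74.5 TMM-scaled RPM in zmp-1, and 120, 56.8 and 71.4 in zmp-2, against 22.9, 39.6 and 21.3 in WT. Only zmp-1 replicate 2 came close to the highest WT library. The log2 fold changes were 1.46 ± 0.38 in zmp-1 and 1.56 ± 0.38 in zmp-2.

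ERF5 and ERF6 are closely related activators, both MAP kinase substrates, known in defence and in the slowing of leaf growth under osmotic stress. ERF5 stood at 18.9, 11.8 and 34.4 TMM-scaled RPM in zmp-1, and at 24.6, 26.0 and 24.4 in zmp-2, against 3.24, 14.9 and 4.24 in WT. The 3 zmp-2 libraries were nearly equal and above all of WT, while zmp-1 replicate 2 fell below WT replicate 2. On the log2 scale ERF5 differed by 1.50 ± 0.50 in zmp-1 and by 1.70 ± 0.49 in zmp-2, and by 2.54 and 2.74 without WT replicate 2.

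ERF6 had 34.5, 20.5 and 42.9 TMM-scaled RPM in zmp-1, and 27.0, 14.4 and 20.8 in zmp-2, against 10.2, 19.7 and 16.2 in WT. The zmp-1 libraries were above WT with little room between zmp-1 replicate 2 and WT replicate 2, and zmp-2 overlapped WT. ERF6 differed by 1.09 ± 0.31 on the log2 scale in zmp-1 and by 0.43 ± 0.31 in zmp-2. The ratio of ERF5 to ERF6 counts within a library, which needs no scaling, was 0.547 to 0.802 in zmp-1, 0.909 to 1.81 in zmp-2 and 0.261 to 0.760 in WT, so that zmp-2 was apart from both other genotypes. This ratio was looked at after the values were known.

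WRKY18 and WRKY40 are related, pathogen-induced factors that act together as repressors of defence genes, and in these libraries they differed from WT in opposite directions. WRKY18 had 23.9, 17.7 and 10.2 TMM-scaled RPM in zmp-1, and 10.9, 6.01 and 8.54 in zmp-2, against 23.3, 24.5 and 37.7 in WT. All zmp-2 libraries were below all WT libraries, and zmp-1 replicate 1 lay within the WT range. WRKY18 differed by −0.70 ± 0.31 on the log2 scale in zmp-1 and by −1.74 ± 0.32 in zmp-2, which is 3.35-fold lower in zmp-2.

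WRKY40 had 34.6, 27.0 and 56.8 TMM-scaled RPM in zmp-1, and 40.3, 21.3 and 32.3 in zmp-2, against 7.81, 19.8 and 21.4 in WT. The zmp-1 libraries were all above WT, and in zmp-2 replicate 2 was level with WT replicate 3. The log2 fold changes were 1.27 ± 0.38 in zmp-1 and 0.94 ± 0.37 in zmp-2. WRKY40 shares 51 bp with the opposite-strand gene AT1G80850, which had 9 to 57 counts per library.

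Within each library WRKY40 counts were 1.45, 1.53 and 5.57 times WRKY18 counts in zmp-1, and 3.69, 3.55 and 3.78 times in zmp-2, against 0.335, 0.807 and 0.567 times in WT. WRKY40 thus exceeded WRKY18 in all 6 mutant libraries and in none of the 3 WT libraries, and this ratio is free of any scaling between libraries. The pair was picked after its values were seen. WRKY60, the closest relative of both, had 2.64, 2.47 and 1.56 TMM-scaled RPM in zmp-1, and 1.36, 2.31 and 4.43 in zmp-2, against 2.19, 6.29 and 1.92 in WT, and the genotypes overlapped.

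**Figure D2:**
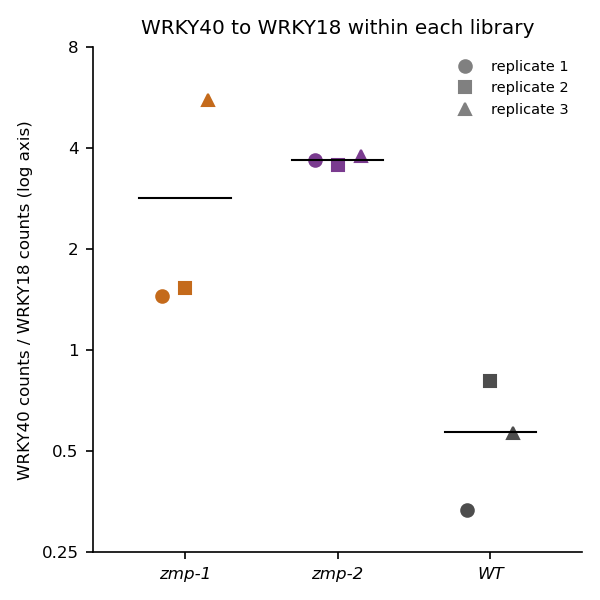
Counts of WRKY40 divided by counts of WRKY18 in each library (log axis), with zmp-1 and zmp-2 left of WT; symbols mark the replicate number and bars the mean of 3 libraries. The mutant libraries lie between 1.45 and 5.57, all above the WT libraries, which lie between 0.335 and 0.807.

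WRKY33, which MPK3 and MPK6 phosphorylate and which drives synthesis of the antimicrobial camalexin, had 99.0, 62.3 and 97.4 TMM-scaled RPM in zmp-1, and 86.7, 34.2 and 73.7 in zmp-2, against 27.4, 67.5 and 80.6 in WT. Every genotype had a low library, and the ranges overlapped throughout. WRKY33 differed by 0.56 ± 0.39 on the log2 scale in zmp-1 and by 0.15 ± 0.39 in zmp-2, and the value in zmp-2 became −0.19 without WT replicate 1 and −0.12 without zmp-2 replicate 1. AT2G08965 and AT2G38480, on the opposite strand, share 272 and 26 bp with WRKY33 and had at most 2 and 33 counts in any library.

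WRKY46, a defence and osmotic stress factor, was the lowest of the 10 genes. Its levels were 3.05, 3.00 and 4.67 TMM-scaled RPM in zmp-1, and 2.18, 1.93 and 1.92 in zmp-2, against 1.33, 3.60 and 2.72 in WT. Both mutants overlapped WT, but the mutants did not overlap each other. The log2 fold changes against WT were 0.45 ± 0.35 in zmp-1 and −0.36 ± 0.35 in zmp-2. Without WT replicate 1 the value in zmp-1 was 0.15, and without WT replicate 2 the value in zmp-2 was −0.01.

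ZAT10 and ZAT12 are zinc finger factors with a repression motif, induced by salt, cold, high light and reactive oxygen. ZAT10 had 36.0, 17.5 and 42.9 TMM-scaled RPM in zmp-1, and 35.0, 17.7 and 27.8 in zmp-2, against 8.38, 21.4 and 18.8 in WT. In each mutant replicate 2 was within the WT range and the other libraries were above it. ZAT10 differed by 0.99 ± 0.38 on the log2 scale in zmp-1 and by 0.72 ± 0.38 in zmp-2.

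ZAT12 had 5.86, 9.18 and 9.20 TMM-scaled RPM in zmp-1, and 9.89, 4.54 and 7.41 in zmp-2, against 3.33, 10.1 and 56.2 in WT. WT replicate 3 was far above the 8 other libraries, which overlapped, and in WT the highest library was 16.9 times the lowest. The log2 fold changes of −1.55 ± 0.75 in zmp-1 and −1.66 ± 0.73 in zmp-2 rested on that library: without it they were 0.20 ± 0.44 and 0.10 ± 0.43.

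**Figure D3:**
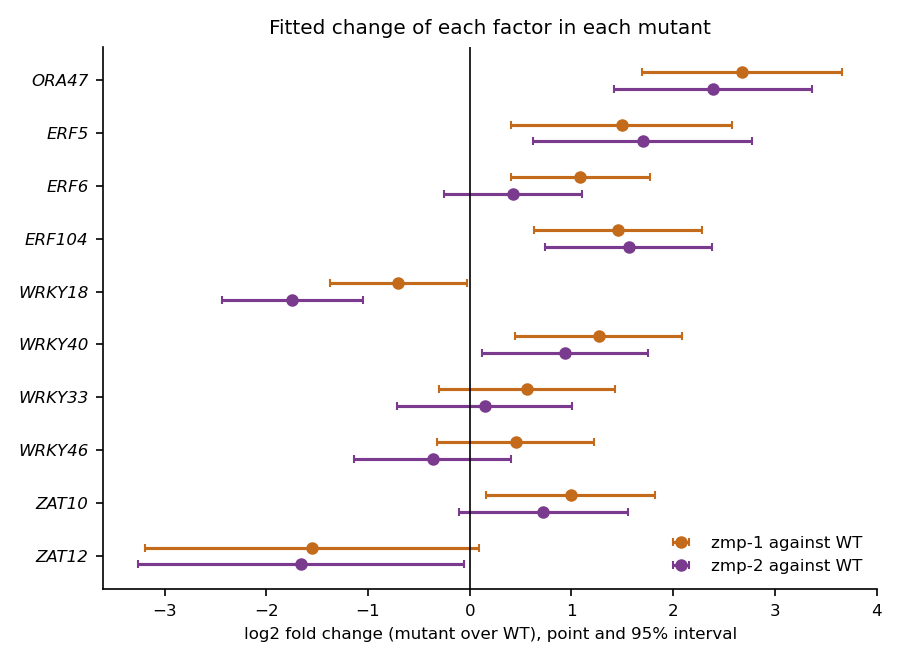
Fitted log2 fold change of each of the 10 genes over WT (points) with its 95% interval from the fit across all genes (bars), zmp-1 above zmp-2 for each gene; the line at 0 marks no difference. ORA47 lies farthest above 0 in both mutants, at 2.68 and 2.39, WRKY18 lies farthest below 0 in zmp-2, at −1.74, and the widest bars are those of ZAT12. The genes were chosen with these values known, so the bars show precision and are not tests.

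The mutants were also set against each other. In zmp-2 against zmp-1, 2 of the 10 genes were higher and 8 lower, with a median log2 fold change of −0.31 beside 0.00 over all genes tested. Without zmp-1 replicate 3 that median was −0.01, and without zmp-1 replicate 2 it was −0.55. None of the 10 was called by edgeR (0.0221% of all genes were) or DESeq2 (0.0884%), and 2 of 10 had an unadjusted p under 0.05 (4.36%).

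WRKY18 was lower in zmp-2 than in zmp-1 by −1.04 ± 0.32 on the log2 scale, the only one of the 10 that differed by more than 2-fold downward (1.1% of all genes), and 0 of 10 differed by more than 2-fold upward (1.52%). Its ranges in the mutants overlapped at 10.9 TMM-scaled RPM in zmp-2 replicate 1 and 10.2 in zmp-1 replicate 3. WRKY46 was the only one whose zmp-2 libraries were all below the zmp-1 libraries (6.07% of all genes), with a difference of −0.81 ± 0.35, and no gene of the 10 had zmp-2 wholly above zmp-1 (5.78%). For ORA47 the difference between the mutants was −0.29, with a 95% interval of −1.16 to 0.59, and for ERF104 it was 0.10, with an interval of −0.69 to 0.90. Both could change sign when a library was left out. ORA47 was at 0.09 without zmp-1 replicate 3, and ERF104 at −0.26 without zmp-2 replicate 1.

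Replicates of 1 genotype differed widely in these genes. The SD of log2(TMM-scaled RPM + 1) within a genotype had a median of 0.596 over the 10 genes, beside 0.255 over all genes tested, and 9 of the 10 were above the 90th percentile of all genes, 0.453. WRKY46 was the exception, with 0.336. ZAT12 had the largest value, 1.14, and ERF5 the most uneven, with an SD of 0.735 in zmp-1 and 1.03 in WT but 0.0491 in zmp-2.

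The same libraries were low or high for many of the genes. WT replicate 1 was the lowest of all 9 libraries for 8 of the 10 genes, all but WRKY18 and ERF104, and the lowest WT library for 9. The highest of all 9 was zmp-1 replicate 3 for 6 genes and WT replicate 3 for WRKY18 and ZAT12. In the mutants replicate 2 was the lowest of its genotype for 8 genes in zmp-1 and 7 in zmp-2, although the sample labels do not say that a number marks a shared day or batch.

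Summed over the 10 genes the level was 389, 225 and 407 TMM-scaled RPM in zmp-1, and 380, 201 and 283 in zmp-2, against 110, 227 and 261 in WT. The sums of both mutant replicates 2 were thus within the WT range, and the other mutant sums were above it. WT replicate 1, the library with the smallest sum, had 62.0% chloroplast counts, inside the range of the other libraries, and a total of 10739822 counts. Without WT replicate 1 the median log2 fold change of the 10 genes was 0.77 in zmp-1 and 0.31 in zmp-2, with 8 and 6 genes higher, and without WT replicate 3 it was 1.11 and 0.65, with 9 and 8 higher. The time of day and the handling at harvest are not given in the sources used here, and their part in these differences was not tested.

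**Figure D4:**
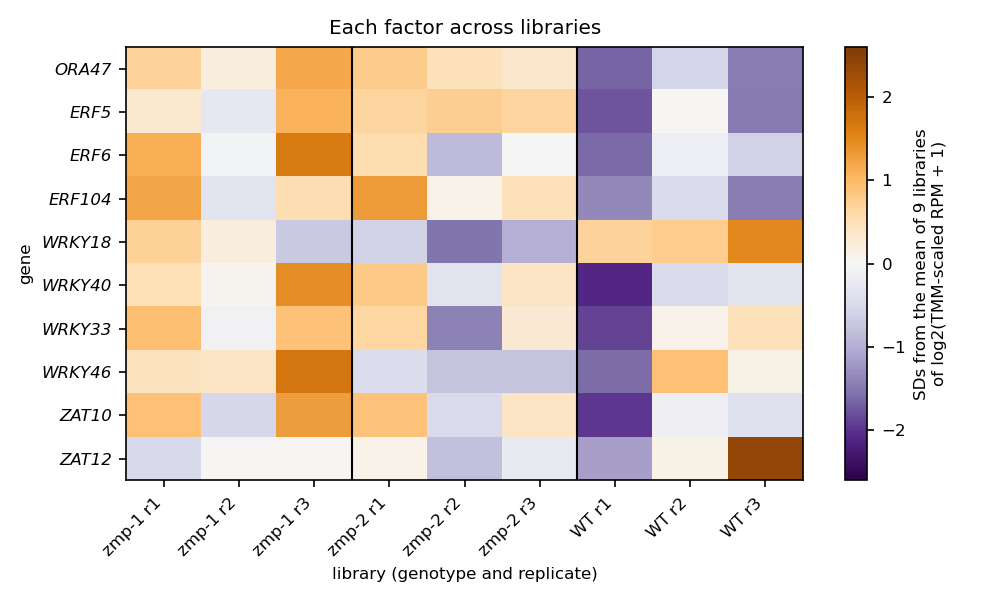
Level of each gene in each library, as the number of SDs from the gene's mean over 9 libraries of log2(TMM-scaled RPM + 1), with zmp-1 and zmp-2 libraries left of WT (r1 to r3 are replicates). WT replicate 1 is lowest for 8 of 10 genes, zmp-1 replicate 3 is highest for 6, and WRKY18 and ZAT12 peak in WT replicate 3.

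Across the 9 libraries the 45 pairs of these genes had a median Pearson r of 0.54 (Spearman 0.57), from −0.77 to 0.95, with 24 pairs above 0.5 and 9 below 0. With the genotype means removed the median r was 0.68, and 27 pairs were above 0.5. All pairs share the same libraries and depth, and these correlations are descriptions over 9 points. Of all other genes tested, HSPRO2 (r = 0.941), AR781 (0.919), AT1G31540 (0.919), AT1G07705 (0.918) and RTFL12 (0.917) had levels most like the mean standardised level of the 10 genes, followed by MIPS3, ACS6, DOF1, ORC4 and WRKY70 at 0.902 to 0.912. With genotype means removed the 10 most alike were AT2G34670 (0.979), OVA1, AT5G08560, RTFL12, AT4G20480, CEF, AT5G41740, BGAL16, REP and WRKY61 (0.952), of which RTFL12 was also among the genes named before.

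Divided by transcript length, the mean levels had another order in the mutants than in WT, though most neighbours in the order overlapped. ZAT12 ranked 9 in zmp-1 and 8 in zmp-2, against rank 2 in WT, where its libraries ranged between 3.40 and 57.3 TMM-scaled RPKM. ERF104 came first in zmp-1, at 55.0 ± 25.03 (SD, n = 3) TMM-scaled RPKM, and in zmp-2, at 59.5 ± 23.7, against 20.1 ± 7.29 and rank 3 in WT. WRKY33 was second in both mutants, at 42.5 ± 10.2 in zmp-1 and 32.0 ± 13.5 in zmp-2, and first in WT, at 28.9 ± 13.7. ORA47 ranked 6 in zmp-1 and 7 in zmp-2, at 18.8 ± 8.53 and 15.4 ± 3.47, against rank 9 and 2.82 ± 2.08 in WT.

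WRKY18 ranked 8 in zmp-1 and 9 in zmp-2, and 4 in WT, and WRKY46 was last in every genotype, at 2.64 ± 0.70 in zmp-1, 1.48 ± 0.11 in zmp-2 and 1.89 ± 0.85 in WT. Neighbours in these orders overlapped in nearly all cases. The exceptions were ZAT12 above WRKY46 in zmp-1, and ORA47 above ZAT12 and WRKY18 above WRKY46 in zmp-2, and in WT every neighbour overlapped the next.

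Other genes of the same response were examined in 7 lists with 94 genes, 81 of which passed the filter. In zmp-2 edgeR called 1 of the 81 genes, ERF2 (0.177% of all genes were called), or 2 with the replicate number as a block, ERF2 and PAD3. In zmp-1 it called 0 (0.0442% of all genes). An unadjusted p under 0.05 was reached by 26 in zmp-2 (12.1% of all genes) and 23 in zmp-1 (9.16%). DESeq2 called 4 in zmp-2 (ERF2, WRKY75, MKK9 and OPR3, with 1.2% of all genes called) and 3 in zmp-1 (ERF2, WRKY70 and PAD3, with 0.607%). Positive log2 fold changes were found for 21 of 81 in zmp-2 and 33 of 81 in zmp-1. Over all genes tested the median log2 fold change was −0.02 in zmp-2 and −0.01 in zmp-1. The lists, like the 10 factors, were chosen with earlier results of these data known. Nothing is therefore read from these counts about the lists, and they are not set against those of the 10 factors.

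ERF2 encodes an ERF activator of jasmonate-responsive defence genes and lies 6924 bp from ERF5 on chromosome 5, on the opposite strand. It had 31.3, 26.5 and 34.1 TMM-scaled RPM in zmp-1, and 45.1, 37.5 and 29.7 in zmp-2, against 10.2, 13.3 and 16.3 in WT. All mutant libraries were above all WT libraries, as for 2.97% of all genes tested. The difference was 1.50 ± 0.21 on the log2 scale in zmp-2 (edgeR adjusted p = 0.0271) and 1.21 ± 0.21 in zmp-1 (adjusted p = 0.0909). In zmp-2 the adjusted p ranged between 4.64e-07 and 0.123 over 15 alternatives, of which 10 kept it called, and it was lost with library size alone (0.0593) and without zmp-1 replicate 1 (0.0559), zmp-1 replicate 2 (0.0594), zmp-2 replicate 1 (0.0762) or zmp-2 replicate 2 (0.123).

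ERF1A, the neighbour of ERF6 at 5041 bp on chromosome 4, had 29.6, 26.1 and 38.2 TMM-scaled RPM in zmp-1, and 48.0, 33.7 and 31.6 in zmp-2, against 14.8, 17.4 and 35.3 in WT, and its genotypes overlapped. Of the 9 tested members of the other AP2/ERF factors 6 were higher in zmp-1 and 3 in zmp-2, with medians of 0.44 and −0.79. RAP2.6 was lowest in both, at −2.73 ± 1.16 and −2.76 ± 1.11, with 11.4 TMM-scaled RPM in WT replicate 3 and at most 1.06 elsewhere. Without WT replicate 3 RAP2.6 was at 0.19 ± 0.87 in zmp-1 and 0.17 ± 0.84 in zmp-2. ERF105 was listed at 0 counts in every library, and it overlaps an opposite-strand gene.

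The 16 other WRKY genes tested were mostly lower, 11 in zmp-1 and 12 in zmp-2, with medians of −0.45 and −0.49, and none was called by edgeR. Their values ranged between −2.11 ± 0.76 in zmp-1 and −2.38 ± 0.73 in zmp-2 for WRKY75, a factor of phosphate starvation and senescence, and 1.33 ± 0.33 and 0.96 ± 0.33 for WRKY70, a regulator of salicylate responses. Without WT replicate 3 WRKY75 was at −1.08 in zmp-1 and −1.38 in zmp-2, and without a library of the mutant (zmp-1 replicate 2, zmp-2 replicate 3) at −2.72 and −3.19. WRKY70 had 39.0, 23.5 and 39.5 TMM-scaled RPM in zmp-1, and 32.9, 26.0 and 20.6 in zmp-2, against 6.76, 18.9 and 14.8 in WT. It was above WT in every mutant library (2.97% of all genes tested). WRKY28 went the other way, with 2.85, 3.35 and 1.98 in zmp-1, and 2.11, 3.00 and 3.57 in zmp-2, against 4.19, 4.19 and 5.65 in WT. It was below WT in every mutant library (2.28% of all genes tested). Without WT replicate 2 the median of the list was 0.02 in zmp-1 and −0.16 in zmp-2.

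Among 7 other C2H2 zinc finger genes 2 were higher in zmp-1 and 1 in zmp-2, with medians of −0.52 and −0.59, which were 0.28 and 0.18 without WT replicate 3. ZAT8 was the lowest, at −3.48 ± 1.31 in zmp-1 and −2.69 ± 1.15 in zmp-2, and 0.35 and 1.15 without WT replicate 3, where it had 12.9 TMM-scaled RPM against at most 0.819 elsewhere. AZF1 was the highest, at 0.74 ± 0.52 and 0.30 ± 0.52. ZAT8, RAP2.6 and ZAT12 had their highest level in the same WT library.

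Touch genes had opposite medians in the mutants. Their calmodulin-like products and the cell wall enzyme TCH4 are classical markers of mechanical stimulation. Of 7 tested, 4 were higher in zmp-1 and 0 in zmp-2, with medians of 0.65 and −0.37. TCH4 had 424, 314 and 226 TMM-scaled RPM in zmp-1, and 224, 83.3 and 77.0 in zmp-2, against 155, 195 and 148 in WT. Its zmp-1 libraries were above all of WT and zmp-2, by 0.95 ± 0.38 on the log2 scale over WT, and zmp-2 against zmp-1 differed by −1.33 ± 0.38 (edgeR adjusted p = 0.944, not called) and by −1.997 without zmp-2 replicate 1 (adjusted p = 0.083), the highest zmp-2 library. CML37 was the lowest of the list, at −2.11 ± 0.94 in zmp-1 and −2.01 ± 0.89 in zmp-2, and 0.35 and 0.47 without WT replicate 3. TCH1, at −0.74 ± 0.42 and −0.41 ± 0.40, and TCH3, at −0.50 ± 0.33 and −0.98 ± 0.33, were also lower in both mutants. TCH3 had 61.0, 67.8 and 36.7 TMM-scaled RPM in zmp-1, and 60.4, 20.4 and 37.6 in zmp-2, against 78.1, 79.9 and 76.5 in WT. Its mutant libraries were all below WT (2.28% of all genes tested).

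Upstream kinases, CAMTA factors and partner proteins were the last of the regulators examined. Of 11 tested, 6 were higher in zmp-1 and 4 in zmp-2, with medians of 0.08 and −0.22, and none was called by edgeR. MKK9, a MAP kinase kinase of ethylene and stress signalling, was the highest in both, at 0.92 ± 0.26 and 1.08 ± 0.26, with 11.5, 12.4 and 19.4 TMM-scaled RPM in zmp-1, and 19.6, 13.7 and 14.6 in zmp-2, against 5.62, 7.47 and 9.69 in WT. MKK5 was the lowest, at −0.25 ± 0.39 and −0.40 ± 0.38, MPK3 differed by 0.34 ± 0.25 and 0.08 ± 0.25, and SIB2 was listed at 0 counts in every library.

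Of 20 other rapidly induced genes, 10 were higher in zmp-1 and 9 in zmp-2, with medians of −0.03 and −0.17 and none called by edgeR. Without WT replicate 2 the medians were 0.60 and 0.29. DIC2, a mitochondrial carrier, was the highest in zmp-1, at 1.195 ± 0.374, and BAP1, an inhibitor of cell death, in zmp-2, at 0.76 ± 0.35. NAC019 was the lowest in zmp-2, at −1.01 ± 0.64, and at 0.30 ± 0.48 without WT replicate 3, where it had 18.8 TMM-scaled RPM against 1.98 to 7.65 in the other libraries. MYB15 was the lowest in zmp-1, at −2.93 ± 1.39, on 0, 4 and 6 counts in zmp-1, and at −1.815 without zmp-1 replicate 1 and −3.95 without zmp-1 replicate 3.

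FRK1, a receptor kinase gene used as a marker of pattern-triggered immunity, had 0.126, 1.06 and 0.708 TMM-scaled RPM in zmp-1, and 0.477, 0.308 and 12.3 in zmp-2, against 2.29, 6.16 and 1.21 in WT. Its difference of 3.24 ± 1.38 in zmp-2 against zmp-1 was the highest of the list, was not called, and rested on zmp-2 replicate 3, without which it was −0.29 ± 1.04. Without zmp-1 replicate 1 it was 2.33, and without zmp-1 replicate 2 it was 3.88.

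Among known targets of the 10 factors, all 11 tested had negative log2 fold changes in zmp-1 as well as zmp-2, with medians of −0.85 and −0.77. None of them was called by edgeR, while 5 in zmp-1 (9.16% of all genes) and 6 in zmp-2 (12.1%) had an unadjusted p under 0.05. Without WT replicate 3, 9 and 10 of the 11 had negative values, with medians of −0.47 and −0.71.

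Among the jasmonate synthesis genes that ORA47 can activate, OPR3 had 18.6, 22.8 and 21.9 TMM-scaled RPM in zmp-1, and 15.5, 12.8 and 11.1 in zmp-2, against 28.4, 15.8 and 70.0 in WT, and AOC2 had 36.9, 34.1 and 41.5 in zmp-1, and 33.2, 51.9 and 29.2 in zmp-2, against 30.8, 59.7 and 59.6 in WT. OPR3 was below WT in every zmp-2 library, though by little at 15.5 in zmp-2 replicate 1 against 15.8 in WT replicate 2. Its log2 fold changes were −0.85 ± 0.41 in zmp-1 and −1.53 ± 0.41 in zmp-2, and −0.07 ± 0.25 and −0.74 ± 0.24 without WT replicate 3, its highest library. AOS was the closest to 0 in zmp-1, at −0.14 ± 0.30, and EDS1 in zmp-2, at −0.27 ± 0.23.

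PAD3, the last enzyme of camalexin synthesis and a target of WRKY33, had 0.502, 0.530 and 0.425 TMM-scaled RPM in zmp-1, and 0.614, 0.462 and 3.31 in zmp-2, against 2.67, 5.96 and 45.8 in WT. The highest value was again in WT replicate 3, and zmp-2 replicate 3 was the only mutant library within the WT range. On the log2 scale PAD3 differed by −5.17 ± 1.17 in zmp-1 and by −3.59 ± 0.96 in zmp-2, and by −3.14 and −1.55 without WT replicate 3. In zmp-2 the value was −5.03 without zmp-2 replicate 3. With the replicate number as a block it was −3.33 ± 0.51 in zmp-2 and was called (edgeR adjusted p = 0.043).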

How the data were processed

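The authors prepared libraries with the NEBNext Ultra kit, used Trim Galore for adapter removal and STAR 2.5.3a for alignment to TAIR10 (Araport11 genes). They deposited raw counts per gene as STAR gives them. Which strand was counted is not given in the sources used here. STAR leaves out reads that fall on more than 1 gene, so genes that overlap a neighbour may be undercounted.

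edgeR 4.0.16 (R 4.3.3) was applied to the counts of 37336 genes (TMM scaling, filterByExpr by genotype, which kept 18109 genes, and a quasi-likelihood fit to all 9 libraries with 1 coefficient per genotype; two-sided, Benjamini-Hochberg adjusted p of at most 0.05). SEs are the log2 fold change divided by the square root of F. The members and the lists of related genes were chosen with earlier results of these data known. Named genes were the 10 members, ZMP, each called gene of the lists, and the highest and lowest of each list against WT, apart from CML38. The 10 genes most alike to the members' mean level, with and without genotype means, were named too. Of the highest and lowest in zmp-2 against zmp-1 only some are named. Genes named beyond these, such as ERF1A, WRKY28, WRKY60, TCH3, MPK3, APX1, AOC2 and OPR3, were chosen after their values were seen. Gene positions come from RefSeq's TAIR10.1 annotation, where ZAT10 is named STZ and ZAT12 RHL41. The script was tested on simulated data.

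Alternatives were DESeq2 1.42.0, other scalings, no filter on low counts, nuclear genes alone, a replicate block and leaving out each library. Library totals were between 5815211 and 25182435 counts, so that 3 counts, the floor, are 0.119 to 0.516 RPM. No pair of replicates was identical. Replicate numbers come from the sample labels alone. Deviations from the genotype mean correlated at 0.128 to 0.277 between WT and zmp-2 libraries of the same number. The values were 0.039 to 0.057 between WT and zmp-1, and −0.085 to 0.143 between zmp-1 and zmp-2. Libraries of different number correlated at −0.299 to 0.076 between WT and zmp-2, and at −0.053 to 0.005 between WT and zmp-1. Between zmp-1 and zmp-2 they correlated at up to 0.167. The main fit used no pairing, and the replicate block was an alternative.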

Additional observations from a re-analysis of the deposited data

Results flagged for a closer look

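WRKY46 differed between the mutants: each zmp-1 library (3.05, 3.00 and 4.67 TMM-scaled RPM) was above the WT mean of 2.55 and each zmp-2 library (2.18, 1.93 and 1.92) was below it. The WT libraries were at 1.33, 3.60 and 2.72, and both mutants overlapped them. The fitted log2 fold change of zmp-2 against zmp-1 was −0.81, with a 95% interval of −1.59 to −0.04, and edgeR did not call it. WRKY46 had 14 to 73 counts per library.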

How the results depend on the processing

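Over all genes, calls in zmp-1 against WT numbered 8, against 51 with no filter on low counts, 110 with DESeq2 and 0 to 53 when a library was left out. In zmp-2 against WT they numbered 32, against 20 with library size alone, 130 with no filter, 218 with DESeq2 and 5 to 110 when a library was left out, and in zmp-2 against zmp-1 4, against 8 with no filter, 16 with DESeq2 and 1 to 27. Of the 10 factors, 1 was called in zmp-1 (ORA47) and 3 in zmp-2 (ORA47, WRKY18 and ERF104) with no filter, 2 and 3 with DESeq2, and 0 to 2 in each mutant when a library was left out: ORA47 and ERF5 in both mutants without WT replicate 2, and WRKY18 in zmp-2 without WT replicate 1 or without zmp-1 replicate 3. Of the related genes, 1 was called in zmp-1 with the replicate block, 2 with no filter, 3 with DESeq2 and 0 to 1 when a library was left out, and in zmp-2, where 1 was called, 2 with the replicate block, 0 with library size alone, 2 with no filter, 4 with DESeq2 and 0 to 3.

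Factors wholly above WT in zmp-1 numbered 4 to 7 when a library was left out (7 without zmp-1 replicate 2, where 12.3% of all genes were), and in zmp-2 3 to 6 (6 without zmp-2 replicate 2, where 13.6% were). With fewer libraries more genes separate: 9.7 to 15.3% of all genes were higher in zmp-1 and 12.6 to 16.4% in zmp-2. Factors wholly below WT numbered 1 in zmp-1 with library size alone and 0 to 2 when a library was left out, and 1 to 3 in zmp-2 (3 without WT replicate 1, where 14.8% of all genes were). The median log2 fold change of the 10 factors stayed between 0.77 and 1.298 in zmp-1 and between 0.31 and 0.82 in zmp-2 when a library was left out, and between −0.55 and −0.01 in zmp-2 against zmp-1. Of 450 values of single factors under the alternatives, 11 changed sign. Library size alone moved the median of all genes to −0.12 for zmp-1 and −0.10 for zmp-2. The cause of these differences was not tested.

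Libraries of the same number were more alike than others between WT and zmp-2. The same held between WT and zmp-1, though the correlations were weak. The labels name no shared batch, and the main fit used no pairing. With the replicate block the median of the 10 factors was 0.97 in zmp-1, 0.53 in zmp-2 and −0.28 in zmp-2 against zmp-1, and none of the 10 changed its call. PAD3 was the gene added by the block in each mutant, with an adjusted p of 0.047 in zmp-1 and 0.043 in zmp-2, and no other call among the related genes changed. Depth limits WRKY46 most, with 305 counts in all libraries together.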
